A study of Mus musculus with 22 samples.

Results

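The Zfp genes are mouse genes whose symbol is Zfp followed by a number. They were taken here as every peak of the deposited ac4C peak table whose gene symbol has that form, with the Zfp36 symbols left out. The Zfp36 family carries CCCH fingers and binds AU-rich RNA. The pattern Zfp36 also removed Zfp362. The rule gave 105 peaks in 55 genes, out of 9857 peaks in 4909 gene symbols, or 1.07% of all peaks. The rule reads symbols and no measured value.

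Most Zfp genes encode proteins with C2H2 zinc fingers, small loops held by a zinc ion that read DNA and in some proteins RNA. Many also carry a KRAB domain, which recruits the corepressor Trim28 and, through it, the histone methyltransferase Setdb1, and so silences retroelements and neighbouring chromatin. Others act away from chromatin, in ribosome assembly, ribosome quality control, splicing or ubiquitin transfer. N4-acetylcytidine (ac4C) is a modified cytidine that the acetyltransferase NAT10 places on ribosomal, transfer and messenger RNA. In acRIP-seq, mRNA fragments are captured with an antibody against ac4C and sequenced.

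The study set kidneys of db/db mice, made obese and diabetic by loss of leptin receptor function on both alleles, against kidneys of db/m mice, their heterozygous nondiabetic controls. There were 6 db/db and 5 db/m animals, each with an ac4C immunoprecipitation (IP) library and an RNA-seq library, 22 libraries in all. The methods describe the db/db and db/m mice as male and bought at 8 weeks of age, and the age at which these kidneys were taken is not given in the sources used here. No other treatment is named for these libraries. The IP libraries held 7577171 to 9862426 reads in peaks in db/db mice and 9125099 to 10293757 in db/m mice, and the RNA-seq libraries 3160992 to 3352535 and 3151035 to 3265239. These are sums over all 9857 peaks, so reads in overlapping peaks count more than once. Kidney markers were present in the RNA-seq libraries. Of 6 proximal tubule genes 4 had a peak, led by Lrp2, the endocytic receptor megalin, and Slc12a1 of the loop of Henle and Aqp2 and Aqp3 of the collecting duct had peaks too. Neither marker of the distal convoluted tubule, Slc12a3 or Pvalb, had a peak. In bulk tissue, fewer cells of a type and less RNA per cell cannot be told apart.

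The peaks covered a small part of the gene family. RefSeq (GRCm38.p6) lists 388 protein-coding genes whose symbols fit the rule, so that 14.2% of them had a peak, against 19.9% of all 21900 protein-coding genes. The 55 genes lay on 17 chromosomes, with 13 on chromosome 7, where RefSeq places 92 of the 388. A single peak was listed for 23 genes, 2 peaks for 20, 3 for 7, 4 for 4 and 5 for 1, Zfp91. Since the table joins a list called in db/db mice (56 Zfp peaks) with one called in db/m mice (49), many peaks cover the same bases, and the 105 peaks formed 70 separate regions. Both lists held 35 of these regions, 21 were in the db/db list alone and 14 in the db/m list alone. Regions in both lists had a median of 268.7 IP reads per library, those in the db/db list alone 20.5 and those in the db/m list alone 1.55. Presence in 1 list therefore came mostly with few reads. Among regions with a mean of at least 10 reads in both library types, the 8 in the db/db list alone had a median log2 fold change in IP reads of 0.23, the 31 shared regions had 0.21 and the 2 in the db/m list alone had -0.10. Being listed through 1 genotype alone favours higher IP reads in that genotype, so these medians cannot show a genotype difference. For 19 of the 55 genes no peak reached a mean of 10 IP reads, among them Zfp141, Zfp282, Zfp462, Zfp521, Zfp609, Zfp786 and Zfp959. That filter on both library types left 71 peaks, in 41 regions of 32 genes.

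Sequence could be shown where a peak reached the start of its gene. RefSeq promoter windows, from 250 bases before to 50 bases after a gene start, were at hand for 46 of the 55 genes, and a peak entered the window in 5 of them (Zfp3, Zfp444, Zfp653, Zfp768 and Zfp771). The stretches below are printed 5′ to 3′ on the gene's strand in GRCm38, for the 3 genes whose peak lay across or just past an annotated start with a mean of at least 10 IP reads. Capitals mark the bases inside the peak. The first is chr7:6172483-6172542 on the plus strand, which holds the 30 bases on each side of an annotated Zfp444 start. The second is chr7:127244496-127244555 on the plus strand, with the same layout for Zfp771 and the peak of the db/m list. The third is chr9:22071327-22071356 on the minus strand, the last 30 bases of the Zfp653 window.
Zfp444: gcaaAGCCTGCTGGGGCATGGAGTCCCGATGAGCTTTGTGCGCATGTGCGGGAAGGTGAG
Zfp771: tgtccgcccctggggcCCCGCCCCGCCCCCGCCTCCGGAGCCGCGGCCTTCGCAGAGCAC
Zfp653: accagggagggGGGGATGGCGGAGCGGGCT
The Zfp444 peak and the Zfp771 peak of the db/m list thus began before an annotated start, the Zfp771 peak of the db/db list began past it, and the Zfp653 peak began just past one. The RefSeq gene span of Zfp444 opens further upstream, and the Zfp444 peak began 19 bases inside it. Zfp653 had a mean of 1.73 RNA-seq reads, so that its ratio rests on few reads. Of the 52 promoter windows of these 46 genes, 27 (51.9%) held the letters GGGCGG on either strand, the core of the GC box, against 35.7% of all 32851 windows. The letters TATAAA, searched on both strands, were in 2 of the 52 (3.85%) and in 13.6% of all windows, and the median number of CG pairs was 19 against 7. All windows include those of genes without a peak, and windows of other genes with a peak were not counted apart. The gaps therefore cannot be read as a trait of Zfp genes. These are counts of letters and say nothing of binding.

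The main comparison asked whether ac4C reads on Zfp transcripts differed between db/db and db/m kidneys. Few did. With edgeR's quasi-likelihood test over all 9857 peaks, a Benjamini-Hochberg adjusted p under 0.05 and an absolute log2 fold change over 1, none of the 105 Zfp peaks was called in IP reads, where 3.32% of all peaks were. None was called in RNA-seq reads, where 3.95% of all peaks were, and none in IP relative to RNA-seq reads, where 0.0203% were. DESeq2 also called 0 in each of the 3 comparisons. At an unadjusted p under 0.05 with no fold threshold, 9 Zfp peaks passed in IP reads (8.57%; 21.2% of all peaks), 14 in RNA-seq reads (13.3%; 24.5% of all peaks) and 6 in the relative comparison (5.71%; 6.76% of all peaks). With the fold threshold beside the unadjusted p, 2, 4 and 2 Zfp peaks passed in IP, RNA-seq and relative reads, where 8.35%, 7.07% and 2.38% of all peaks did.

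The differences that were seen were small, and more were above 0 than below. In the 71 peaks with at least 10 reads, the log2 fold change of db/db over db/m ran from -0.67 to 0.93 in IP reads and from -0.71 to 0.68 in RNA-seq reads. IP reads were higher in db/db in 44 of the 71 and RNA-seq reads in 49. With 1 peak per region these were 25 and 28 of 41. Their median was 0.17 in IP reads, against 0.00 over all peaks with that many reads, and 0.12 against 0.00 in RNA-seq reads. Over all 105 peaks the medians were also 0.17 and 0.12, and without db/db animal 1 they were 0.11 and 0.05. The summed level of the 70 regions, with 1 peak each, was 1883 ± 76.2 CPM (SD, n = 6) in db/db and 1854 ± 115 CPM (SD, n = 5) in db/m IP libraries. CPM is a peak's reads scaled to the library's reads summed over all peaks, overlaps included, after TMM normalization. In RNA-seq libraries the summed level was 1642 ± 79.4 CPM in db/db and 1608 ± 48.2 CPM in db/m. The groups overlapped in both.

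**Figure D1:**
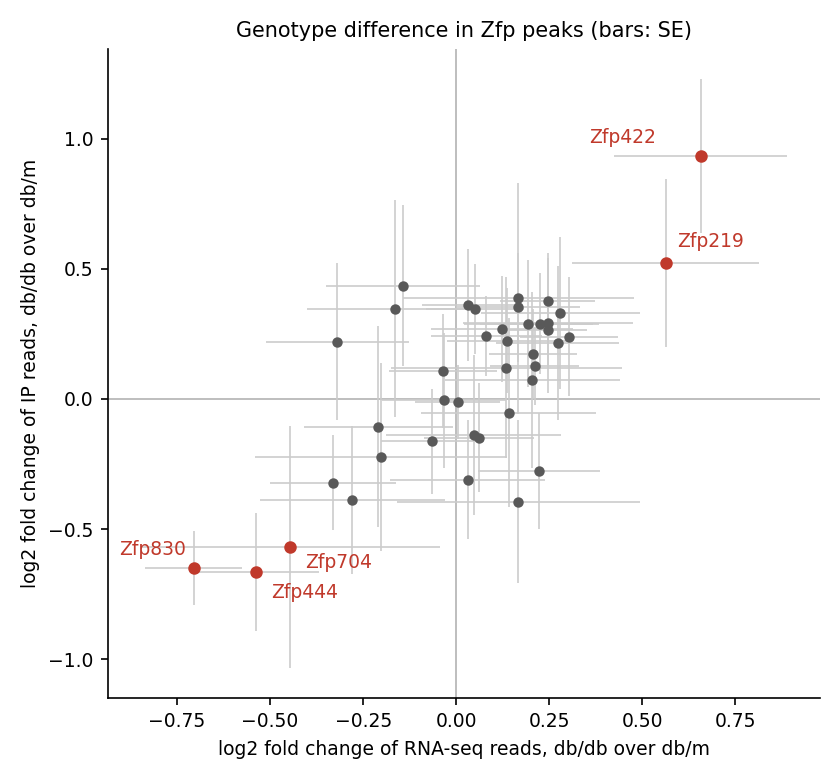
Log2 fold change of db/db over db/m in RNA-seq reads (x axis) and in IP reads (y axis) for 41 Zfp regions with a mean of at least 10 reads, 1 peak each, with bars for the standard error. Most points lie within 0.5 of 0 on both axes, with Zfp830 and Zfp444 at the lower left and Zfp422 at the upper right.

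With adjusted p alone and no fold threshold, only Zfp830 passed in IP reads, and Zfp830 and Zfp444 in RNA-seq reads (6.45% and 11.3% of all peaks passed). Zfp830 encodes a nuclear zinc finger protein needed for genome integrity and pre-mRNA processing in dividing cells. Its 2 peaks cover nearly the same bases, and the longer one lies at chr11:82764993-82765523 on the plus strand, 648 bases inside the gene start and at 27.9% of the gene span. No other RefSeq gene overlaps it. The db/db animals 1 to 6 had 98.3, 96.5, 84.2, 102, 89.4 and 118 CPM in IP, and the db/m animals 1 to 5 had 179, 138, 158, 133 and 163 CPM. Every db/db animal lay below every db/m animal. The log2 fold change was -0.65 (SE 0.14, edgeR adjusted p = 0.00765). In RNA-seq the same peak had 113, 98.9, 86.5, 115, 92.6 and 145 CPM in db/db and 173, 173, 167, 178 and 194 CPM in db/m, again without overlap, with a log2 fold change of -0.70 (SE 0.13, edgeR adjusted p = 0.00116). The fall was of like size in both library types. IP relative to RNA-seq reads differed by 0.08 on the log2 scale (SE 0.12, edgeR adjusted p = 0.926). Leaving out each animal in turn kept the adjusted p between 0.00429 and 0.0352 in IP reads and between 7.94e-05 and 0.00617 in RNA-seq reads.

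Zfp444, a zinc finger protein with a SCAN domain, had 2 regions, whose changes were not tested against each other. The far one, chr7:6184029-6189480 on the plus strand, is 5452 bases long and is listed with the same bounds in both lists. It had 33.4, 30.3, 24.0, 28.8, 32.6 and 51.3 CPM in db/db RNA-seq and 54.9, 45.7, 49.1, 51.1 and 41.5 CPM in db/m. Of the db/db animals only animal 6 reached the db/m range. The log2 fold change was -0.54 (SE 0.17, edgeR adjusted p = 0.0458), and the call was lost when any 1 of 9 of the 11 animals was left out, with an adjusted p of up to 0.108 (without db/db animal 4). In IP reads the region had 62.3 ± 20.2 CPM (SD, n = 6) in db/db and 98.8 ± 23.4 CPM (SD, n = 5) in db/m, a log2 fold change of -0.67 (SE 0.23, edgeR adjusted p = 0.0936) with overlapping groups. It passed on adjusted p alone without db/m animal 2 (edgeR adjusted p = 0.0320), with a block for animal number (edgeR adjusted p = 0.00853) and, barely, in DESeq2 (adjusted p = 0.0498). Number 6 occurs in db/db alone, so the block takes db/db animal 6 out of the genotype difference. Animal 6 had the highest db/db IP level at this region, 84.9 CPM. The start region, whose first bases are printed above, had a log2 fold change of 0.22 (SE 0.30, edgeR adjusted p = 0.751) in IP reads and -0.32 (SE 0.19, edgeR adjusted p = 0.321) in RNA-seq reads.

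Markers of several cell types differed between the same libraries. The summed RNA-seq level of Lrp2, Slc5a2, Slc34a1 and Aqp1 was 932, 686, 632, 747, 545 and 1276 CPM in db/db animals 1 to 6 and 1201 to 1274 CPM in db/m animals, and Lrp2 alone had a mean of 459 CPM. Cubn and Slc5a12 had no peak. The summed level of Aqp2 and Aqp3, of the collecting duct, was 190 to 320 CPM (median 263) in db/db and 124 to 224 CPM (median 174) in db/m. Myh11 and Pdgfrb, of smooth muscle and fibroblasts, summed to 61.3 to 87.4 CPM (median 75.6) in db/db and 39.6 to 79.1 CPM (median 47.5) in db/m, with no call. C1qa, of the immune list, was 3.48 to 36.0 CPM in db/db, highest in animal 3, and 5.07 to 15.3 CPM in db/m. In RNA-seq reads, 1 gene of the proximal tubule list (Slc34a1) and 1 of the adipocyte list (Lpl) were called lower in db/db, and 1 of the collecting duct list (Aqp2) higher. Animal 6 was the highest db/db animal in the proximal tubule sum and in the RNA-seq level of Zfp830 and Zfp444. The next highest was animal 1 in the sum and in Zfp444, and animal 4 in Zfp830. The lowest was animal 5 in the sum and animal 3 in both genes. Of the adipocyte genes, Lpl, which capillary-rich tissues also express, carried nearly the whole list, at 6.67 CPM or less summed in db/db and 13.0 to 70.2 CPM in db/m, while Adipoq and Plin1 were close to 0 in each library. The part of these cell types in the Zfp differences was not tested.

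Zfp422, a C2H2 protein known from tooth development, had the highest log2 fold change in IP reads among the 71 peaks with at least 10 reads. It had a single peak, chr6:116626292-116626472 on the minus strand, found in the db/db list alone. Its IP level was 19.3, 13.7, 18.5, 14.1, 16.9 and 12.9 CPM in db/db and 6.61, 5.41, 5.27, 14.1 and 10.1 CPM in db/m. Animal 4 of db/m lay inside the db/db range. The log2 fold change of 0.93 (SE 0.30, edgeR adjusted p = 0.0720) missed the thresholds on adjusted p and on fold. The peak was called without db/m animal 4 (1.21, edgeR adjusted p = 0.0228), with the block for animal number and without TMM. In DESeq2 it passed on adjusted p alone (adjusted p = 0.0195). Its listing through db/db alone favours higher db/db IP reads, so these IP tests cannot decide whether the genotypes differ. RNA-seq reads changed by 0.66 (SE 0.23, edgeR adjusted p = 0.0816), and with the block for animal number they passed on adjusted p alone (edgeR adjusted p = 0.00880). In both library types the block takes db/db animal 6 out of the genotype difference, and that animal was the lowest of db/db at this peak. Zfp830, Zfp444 and Zfp422 held all 5 of the lowest p-values among the members in both library types, by which they were named, so their tests describe the extremes of 105.

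**Figure D2:**
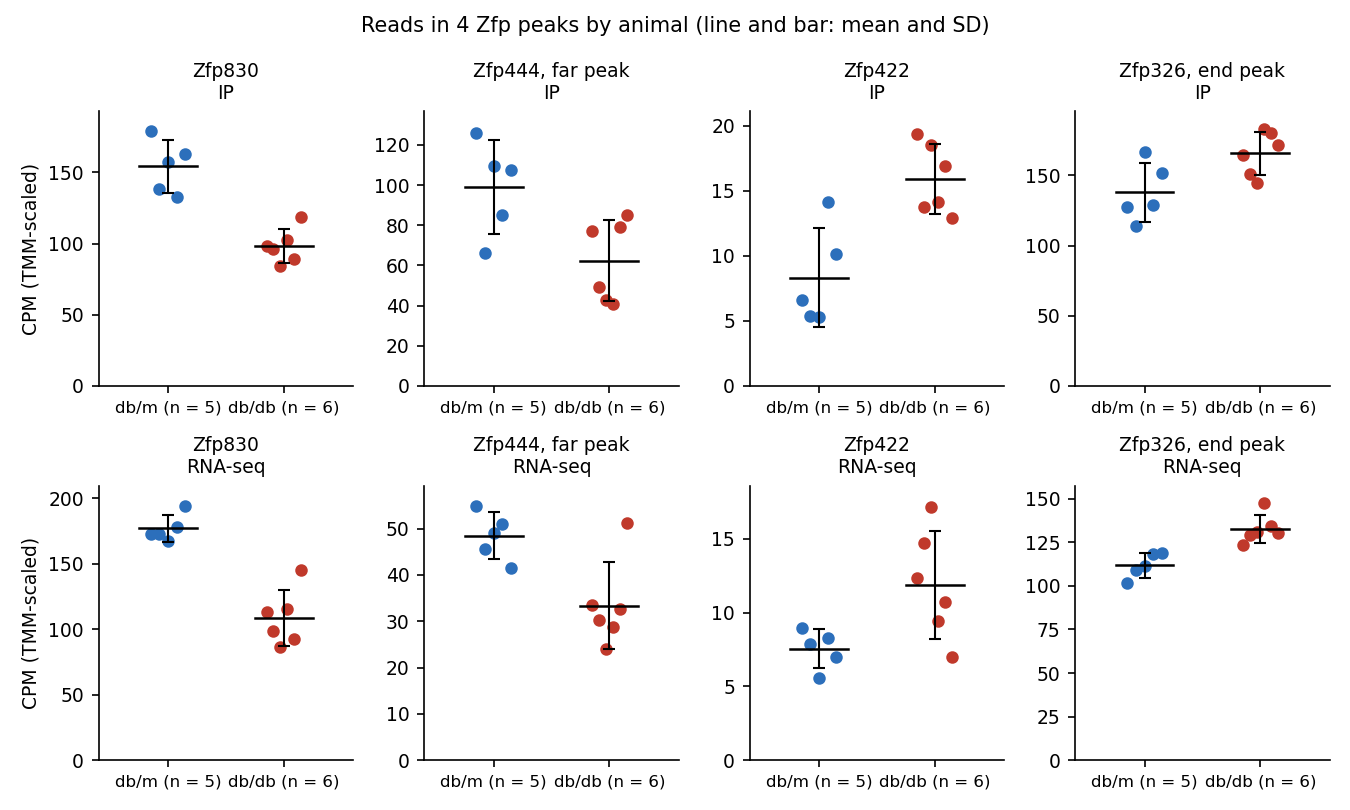
CPM in IP (upper row) and RNA-seq (lower row) libraries for Zfp830, the far region of Zfp444, Zfp422 and the end region of Zfp326, with 1 point per animal and the mean and SD. The db/db animals lie below all db/m animals for Zfp830 in both rows, and above all of them for Zfp326 RNA-seq (123 to 148 against 101 to 119 CPM).

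The members were also grouped by role. Of 6 genes for RNA binding, the ribosome and translation, 5 had peaks, 13 peaks in all. None was called, and their log2 fold change in IP reads ran from -0.22 to 0.37 with a median of 0.27. Zfp326, a subunit of the complex that couples RNA polymerase II elongation to splicing, had an end region at chr5:105910258-105915068 with 123 to 148 CPM in db/db RNA-seq and 101 to 119 CPM in db/m. The groups did not overlap, with a two-sided exact permutation p of 0.00216, the smallest that 462 splits can give, among 34 peaks tested this way. The peak of the other list in this region gave the same p. Across all peaks the change of 0.25 (SE 0.11, edgeR adjusted p = 0.151) did not pass, while DESeq2 gave an adjusted p of 0.0362. In IP it had 166 ± 15.4 CPM (SD, n = 6) in db/db animals and 138 ± 21.2 CPM (SD, n = 5) in db/m (exact permutation p = 0.0411, edgeR adjusted p = 0.292).

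Zfp598, the ubiquitin ligase that marks collided ribosomes, had the lowest p of all members in the relative comparison. At chr17:24678627-24679189, IP over RNA-seq was 1.41, 1.33, 1.47, 1.48, 1.32 and 1.32 in db/db animals and 0.753, 1.57, 0.844, 0.874 and 1.21 in db/m animals. The db/db values lay close together, and 4 of the 5 db/m values lay below all of them and the other above. The difference of 0.44 on the log2 scale (SE 0.18, unadjusted p = 0.0117 in the edgeR fit, adjusted p = 0.564) did not pass. Zfp622, which helps to mature the large ribosomal subunit, had 147 ± 21.8 CPM (SD, n = 6) in db/db IP and 135 ± 17.8 CPM (SD, n = 5) in db/m (edgeR adjusted p = 0.698). Zfp638, a nuclear RNA-binding protein that silences unintegrated retroviral DNA and acts in adipogenesis, had 44.1 ± 5.47 CPM in db/db IP and 34.7 ± 4.33 CPM in db/m at chr6:83979606-83979755 (exact permutation p = 0.0130, the lowest of 34 in IP reads, edgeR adjusted p = 0.259). That Zfp638 region was in the db/db list alone. Being listed through db/db favours higher db/db IP reads, so these p-values cannot decide whether the genotypes differ. Zfp106, an RNA-binding protein of muscle and motor neurons, is described below.

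Of 9 corepressor partners 4 had peaks, and Zfp503 had the most reads among them. Zfp503 (Nolz1) is a Groucho-binding repressor of developing tissues. Its end region, chr14:21984739-21984978 on the minus strand, had 117, 103, 85.6, 163, 116 and 116 CPM in db/db IP and 96.9, 78.8, 84.7, 93.6 and 95.2 CPM in db/m. The groups overlapped through animal 3 of db/db, and the log2 fold change was 0.38 (SE 0.16, edgeR adjusted p = 0.186). Of the adipocyte commitment genes, Zfp467 had 9.50 ± 2.98 CPM (SD, n = 6) and 9.85 ± 5.98 CPM (SD, n = 5), and Zfp521 had a mean of 3.45 IP reads per library, too few to compare. Zfp423, Zfp516 and Zfp217 had no peak. None of the 6 listed genes of imprinting and retroelement repression, none of the 5 GC-rich promoter factors and neither Zfp207 nor Zfp451 had a peak. Zfp91, a ubiquitin ligase, had 224 ± 37.0 CPM (SD, n = 6) in db/db and 226 ± 22.1 CPM (SD, n = 5) in db/m IP at its main region, chr19:12776414-12778634 on the minus strand. That is a log2 fold change of -0.01 (SE 0.14, edgeR adjusted p = 0.990), with a sign that flipped under several settings.

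One control animal set the level of a few members. Db/m animal 2 had 105 CPM in IP and 84.7 CPM in RNA-seq at the Zfp106 peak, chr2:120539416-120539506 on the minus strand, where the other db/m animals had 19.4 to 33.3 and 17.9 to 28.5 CPM. At the start region of Zfp704 it had 207 CPM in IP, against 19.4 to 36.2 CPM, and at Zfp651 49.8 CPM, against 18.2 to 25.6 CPM. Zfp106 changed by -0.22 on the log2 scale in IP reads with this animal and by 0.50 without it, and Zfp704 by -0.57 and 0.60, so that the direction turned. Neither passed the test either way. In the same animal a larger part of the RNA-seq reads in coding genes lay in the first 80% of the gene span (65.2%) than in the other 10 (60.4% to 63.0%), and a smaller part in the last 10% (19.4% against 20.2% to 22.8%). The part of this read distribution in the high values was not tested.

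**Figure D3:**
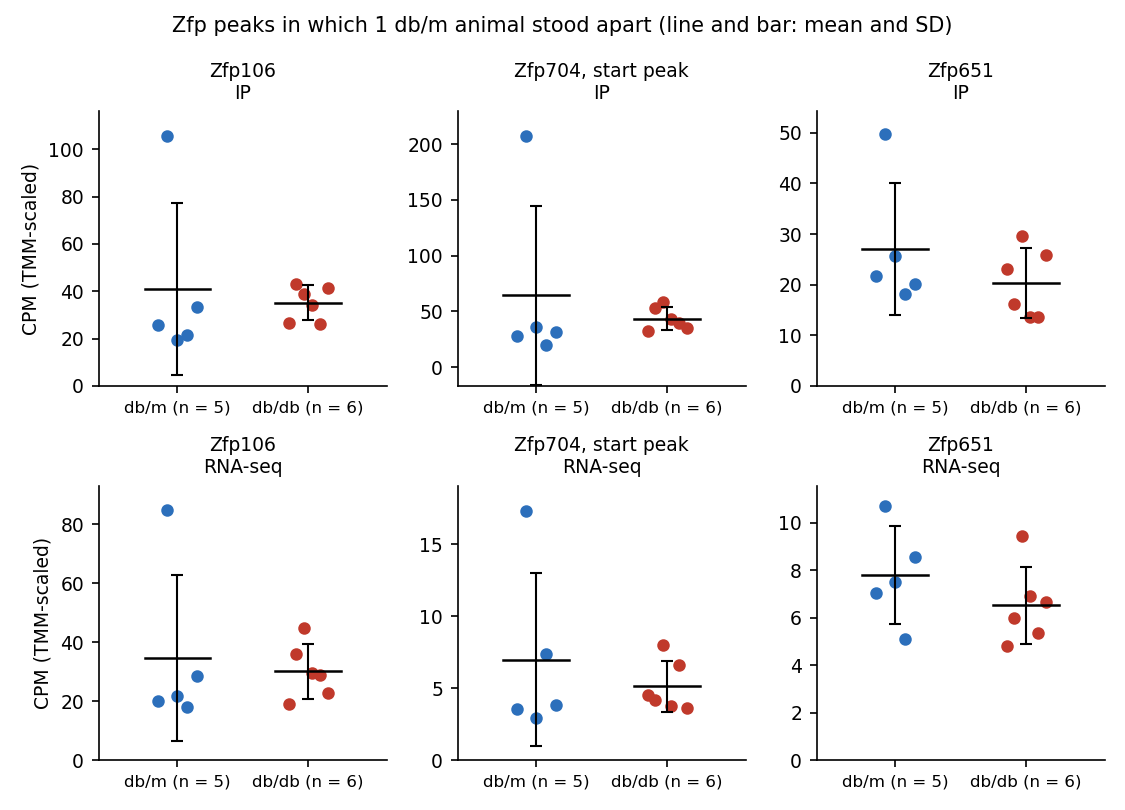
CPM in IP (upper row) and RNA-seq (lower row) libraries for Zfp106, the start region of Zfp704 and Zfp651, with 1 point per animal and the mean and SD. The highest point of each db/m group is the same animal, at 105, 207 and 49.8 CPM in IP.

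IP reads were also set against RNA-seq reads of the same animals, which asks where along Zfp transcripts the antibody recovered more fragments. Whether both library types went through the same mRNA enrichment and fragmentation is not given in the sources used here, and the ratio would hold any such difference. Of the 105 peaks 19 (18.1%) were called at an adjusted p under 0.05 and an absolute log2 ratio over 1, against 19.9% of all peaks, 68 passed on adjusted p alone, where 61.2% of all peaks did, and 17 (16.2%) were higher in IP, against 14.9%. Of the 17, 9 had a mean of at least 10 reads in both library types. The members were thus called about as often as any peak. Their median log2 ratio was 0.58 and that of all peaks 0.14. This gap narrowed among peaks with like RNA-seq reads. With 10 to 50 reads per library the 34 Zfp peaks had a median of 0.75 and all peaks 0.66, with 50 to 200 reads 24 Zfp peaks had 0.17 and all peaks 0.02, and with 200 to 1000 reads 13 Zfp peaks had -0.22 and all peaks -0.38.

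**Figure D4:**
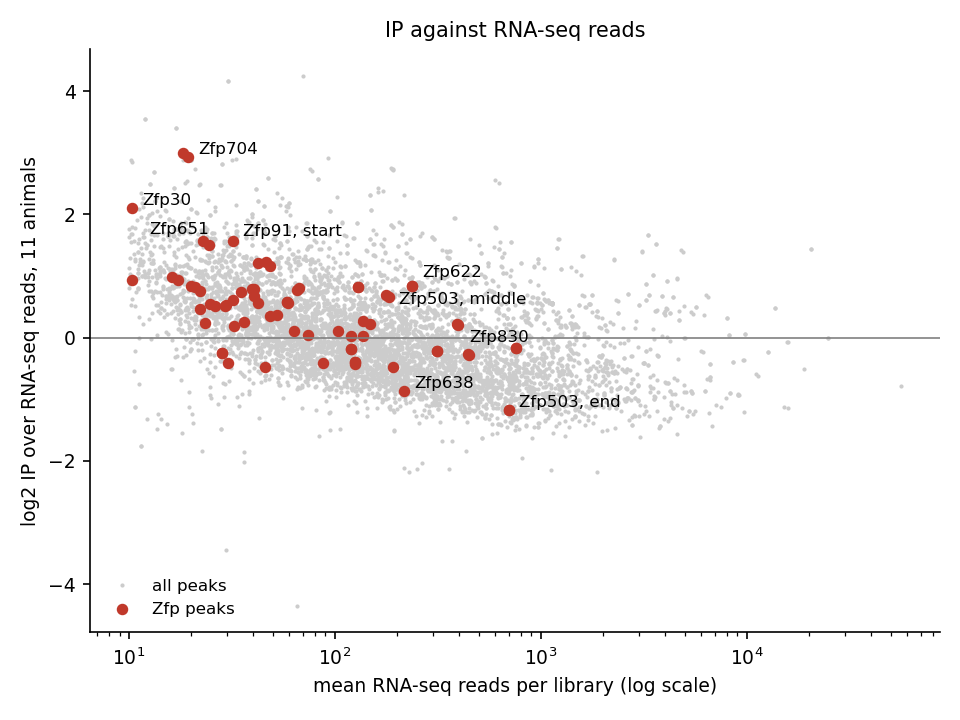
Log2 ratio of IP over RNA-seq reads from the fit over 11 animals (y axis) against the mean RNA-seq reads per library on a log scale (x axis), for peaks with at least 10 reads in both library types. The Zfp peaks fall with rising reads like the other peaks, with the start region of Zfp704 (2.93) near the top and the end region of Zfp503 (-1.17) at the bottom of the members.

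Among peaks with a mean of 10 RNA-seq reads or more, the members spread over more than 4 units on this log2 scale, and those with the most extreme values were named for them. Zfp704, a glucocorticoid-induced zinc finger gene, had the highest of these, while a peak of Zfp710 with a mean of only 0.455 RNA-seq reads had 3.26. The Zfp704 start region lies at chr3:9609307-9609726 on the minus strand, 359 bases inside the gene start, and IP over RNA-seq was 6.68, 11.7, 6.82, 10.6, 5.57 and 8.82 in db/db animals and 7.23, 11.1, 11.6, 2.41 and 7.63 in db/m animals. All 11 animals had a higher CPM in IP than in RNA-seq, and db/m animal 4 had the lowest ratio. The fold enrichment in the authors' deposited table was 208 for the peak of the db/db list and 347 for that of the db/m list, on a scale of its own. Zfp30, a KRAB zinc finger gene, had ratios of 2.11 to 8.44 at chr7:29784656-29784895, with a mean of only 10.4 RNA-seq reads. Zfp651 had 1.83 to 4.54 at chr9:121763475-121763774. At the other end, the end region of Zfp503 had 0.370 to 0.542, below 1 in all 11 animals, and Zfp638 at chr6:83979606-83979755 had 0.348 to 0.758. Zfp740 and Zfp318 followed, with log2 ratios of -0.47 each. The gene with the highest RNA-seq level per kilobase was Zfp503 (902 CPM per kb of peak), followed by Zfp638 (448), Zfp740 (426), Zfp106 (354) and Zfp830 (312).

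Regions of the same transcript were set side by side. In 8 genes with at least 2 regions of 10 reads or more, with each region taken by its peak with the most reads, the highest and lowest log2 ratio within a gene were 0.35 (Zfp664) to 1.82 (Zfp503) apart, with a median of 0.65. As the highest minus the lowest value, this gap is above 0 by its construction. In Zfp664 the order held in 8 of 11 animals, and in Zfp326, Zfp598 and Zfp219 in 10. The middle region of Zfp503, chr14:21985874-21986471, had a log2 ratio of 0.65 (SE 0.08) and its end region -1.17 (SE 0.06), and the middle one was higher in 11 of 11 animals. The start region of Zfp91 had 1.21 (SE 0.12) in its peak with the most reads, that of the db/m list, and the region near its end -0.41 (SE 0.11), a gap of 1.62 with the same order in 11 of 11 animals. The shorter start peak of the db/db list had 1.58 (SE 0.13). All 5 Zfp91 peaks also lie within the annotated gene Gm44505, so their reads cannot be assigned to one of them. In Zfp444 the order was the reverse, with 0.83 (SE 0.08) in the far region and -0.25 (SE 0.17) at the start, and the far region was higher in 11 of 11 animals. Start regions were therefore not uniformly high.

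**Figure D5:**
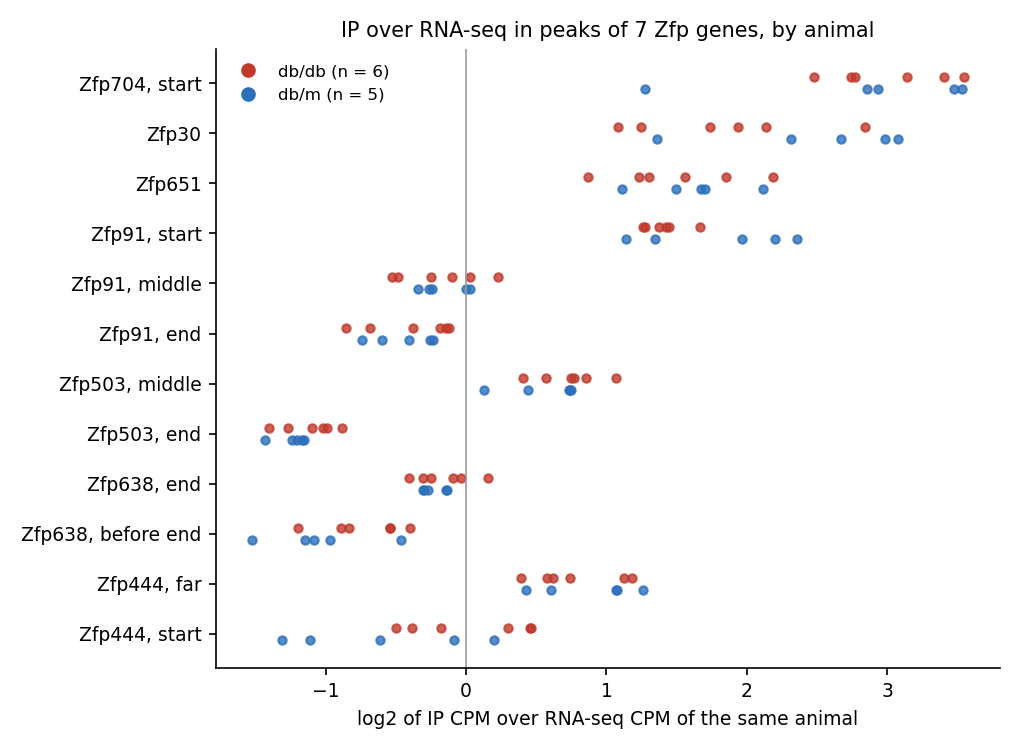
Log2 of IP CPM over RNA-seq CPM of the same animal (x axis) for 12 regions of 7 Zfp genes, with 6 db/db and 5 db/m points each. The start regions of Zfp704 and Zfp91 lie to the right of 0 in every animal, that of Zfp444 on both sides, and the end region of Zfp503 to the left of 0 in every animal.

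Along the gene, a larger share of the members than of coding-gene peaks lay in the last 10% of the span, a difference that was not tested. The last 10% of the gene span held 36.2% of the Zfp peaks and 27.5% of the 8782 coding-gene peaks that could be placed, while the stretch from 10% to 80% held 31.4% and 40.1%. With 1 peak per region these were 37.1% and 28.1% at the end and 31.4% and 39.2% between. The first 10% and the bases before the start held 21 of the 105 Zfp peaks and 18.1% of the coding-gene peaks. Among peaks with at least 10 reads, the 7 Zfp peaks near the start had a median log2 ratio of 1.58 and the 27 in the last 10% had 0.51, against 0.41 and -0.03 for coding-gene peaks there. The 7 came from Zfp704, Zfp91, Zfp444 and Zfp30. These are positions over exons and introns together, and exon and UTR boundaries were not analysed here. Of the 105 peaks 11 overlapped another RefSeq gene, among them Zfp219 with Arhgef40, Zfp628 with Nat14 and Zfp599 with Zfp809, and reads were counted without regard to strand: where 2 peaks lay on opposite strands and overlapped by 90% or more, their read totals came within 20% of each other in 51 of 52 cases.

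Related and partner genes were looked up from lists of symbols. The list of other C2H2 families, matched by symbol, had 57 peaks in 25 genes, among them Zbtb, Klf, Zeb, Sp and Yy1 genes and none of the Zkscan or Zscan genes. The symbol match also took in Ctcflos, a noncoding transcript, and Znfx1, a helicase with another type of finger. None of the 57 was called between the genotypes in IP or RNA-seq reads. With adjusted p alone, both peaks of Zbtb20, a BTB-domain repressor, passed lower in db/db, with a log2 fold change of -0.84 (SE 0.18, edgeR adjusted p = 0.00654) in IP and -0.83 (SE 0.17, edgeR adjusted p = 0.00232) in RNA-seq reads. Both peaks of Zeb1 passed higher in RNA-seq reads (0.58 in the db/db list, edgeR adjusted p = 0.0472). Their median log2 ratio of IP over RNA-seq was 1.07, with 24 peaks called higher in IP, where 14.9% of all peaks were. Among those with at least 10 reads in both library types, 29 peaks had a median of 0.999, against -0.02 over all peaks with that many reads. Of the 29, 14 were called higher, as were 791 of all 6715 peaks with that many reads. The 29 had a median of 58.7 RNA-seq reads and the 6715 had 148, and the list was not compared with peaks of like RNA-seq reads. CCCH finger genes had 29 peaks in 12 genes and no call between the genotypes, and their median ratio was 0.13. Of 29 corepressor and heterochromatin partners of KRAB proteins, 15 had a peak, 39 peaks in all. In IP reads 8 of these were called lower in db/db, all 8 in Chd3, a chromatin remodeller of the NuRD complex, where 1.72% of all peaks were called lower. Some of the 8 repeat across the 2 lists with equal or nearly equal reads, so they are not separate members. By gene, 1 of the 15 was called in IP reads, against 192 of all 4909. The same 8 were called lower in RNA-seq reads, where 1.97% of all peaks were. The log2 fold changes in IP reads of the 8 ran from -1.70 to -1.10. The lowest adjusted p in IP reads belonged to a peak found in both lists with equal reads, a mean of 7901 in IP. It had a log2 fold change of -1.30 (SE 0.18, edgeR adjusted p = 0.000117) in IP reads and -1.21 (SE 0.17, edgeR adjusted p = 8.21e-05) in RNA-seq reads. The remodeller Chd4 had log2 fold changes in IP reads from -0.19 to 0.35 and no call. Setdb1, the methyltransferase that KRAB proteins recruit, had -0.14 (SE 0.29, edgeR adjusted p = 0.841), and Hdac1 and Hdac2 had no call. Trim28 had no peak.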

How the data were processed

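Kidneys of 11 mice (6 db/db, 5 db/m) were analysed, with groups taken from the sample titles. The authors deposited 1 table of peaks with whole read counts per peak and library, made without normalization. The RNA-seq libraries are its input columns. It also holds the deposited fold enrichment of each peak as a linear ratio, a peak p-value and FDR, and the authors' own log2 change and p-values between genotypes, which were not used. The build in the submitters' notes is GRCm38. The aligner, peak caller and counter are not given in the sources used here. Table starts count from 0: adding 1 matched a RefSeq gene start in 78 peaks, the start as given in 3. Positions here count from 1.

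Counts were fitted with edgeR 4.0.16 in R 4.3.3 (TMM, glmQLFit, glmQLFTest) over all 9857 peaks, and a peak was called where its Benjamini-Hochberg adjusted p was under 0.05 and its log2 fold change beyond 1 in size. IP and RNA-seq were fitted apart. The ratio fits had a term for each animal. In the relative fit all peaks shared the trended spread (infinite prior degrees of freedom), so that p is too small where animals differ widely. Single peaks were compared by exact permutation of log2(CPM + 1) in Python 3.11.15. Fits were tested on simulated data. Alternatives were DESeq2 1.42.0, no TMM, filterByExpr, other thresholds, 1 peak per overlapping group, peaks over 1000 bases or with peak FDR over 0.05 left out, each animal left out, and an animal-number block. The members and gene lists were chosen with earlier results of these data known. Peaks were named if called, among the 5 lowest p in IP or RNA-seq reads, in the 5 highest genes by CPM per kb, among the 5 highest or lowest ratios with 10 RNA-seq reads or more, in the gene with most peaks, or on a role list. Zfp219, Zfp653, Zfp664, Zfp771 and the genes with few reads were named after their values were seen. The precision of a peak follows its reads. In the IP and RNA-seq fits and the permutations, p-values measure the spread between these animals. In the ratio fits they rest on ratios within animals. The spread of those ratios was shared across peaks, mostly so for IP against RNA-seq reads (113 prior degrees of freedom).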

Additional observations from a re-analysis of the deposited data

Results flagged for a closer look

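For each of the 19 named genes, the peak with the most reads was examined in the 4 groups of libraries, 76 groups in all. In 13 of them 1 animal lay far from the others, by a gap to its neighbour that took up more of the group's range than Dixon's 95% limit. For independent, normally distributed values, chance alone gives such a gap in about 1 in 20 groups, or 3.80 of 76. Read counts need not follow that distribution, IP and RNA-seq share animals, and some genes were named for extreme values. The 13 therefore cannot be tested against 3.80.

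Db/m animal 2 was the animal in 5 of the 13. It was high at Zfp106 in IP (105 CPM) and RNA-seq (84.7 CPM), at Zfp704 in IP (207 CPM), at Zfp651 in IP (49.8 CPM) and at the main region of Zfp91 in RNA-seq (292 CPM, against 209 to 230). Db/m animal 3 was high at Zfp467 in IP (20.4 CPM, against 5.70 to 7.95) and at Zfp30 in RNA-seq (5.23 CPM, from 16 reads). Db/db animal 4 was low at Zfp467 in IP (3.79 CPM, against 9.37 to 12.1). Db/db animal 1 was high at Zfp30 in RNA-seq (6.02 CPM, from 20 reads), and db/db animal 6 at the far region of Zfp444 in RNA-seq (51.3 CPM, against 24.0 to 33.4).

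The other 3 were at Zfp609, which had almost no reads. They were db/db animal 4 in IP (1.15 CPM, 10 reads), db/m animal 3 in IP (0.110 CPM, 1 read) and db/m animal 1 in RNA-seq (0.321 CPM, 1 read).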

How the results depend on the processing

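No Zfp peak was called in IP, RNA-seq or relative reads, and this held with DESeq2, filterByExpr, 1 peak per overlapping group, and without long or weak peaks. Without a fold threshold 2 were called in IP and 4 in RNA-seq reads, and with an unadjusted p 2, 4 and 2 in IP, RNA-seq and relative reads. With neither, a setting chosen after seeing the data, as was the next, the counts were 9, 14 and 6. Without TMM 1 was called in IP reads (Zfp422). With an animal left out 0 to 1 were called in IP reads (Zfp422 without db/m animal 4) and 0 to 1 in RNA-seq reads (Zfp786 without db/db animal 6, Zfp282 without db/m animal 3, both under 2 RNA-seq reads per library). The ratio of IP to RNA-seq gave 19 calls, 18 to 22 under the planned settings and 68 without a fold threshold.

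Animal numbers did not pair the genotypes, as same-numbered animals correlated at -0.246 to 0.209 in IP and -0.398 to 0.515 in RNA-seq reads. With the replicate block 1 peak was called in IP reads (Zfp422), and the far region of Zfp444 passed on adjusted p alone in IP reads (-0.80, edgeR adjusted p = 0.00853), as did Zfp422 in RNA-seq reads (0.75, edgeR adjusted p = 0.00880). The block turned the IP change of Zfp106 (0.023), Zfp318 (0.013), Zfp467 (0.0088), Zfp704 (0.12) and Zfp91 (0.020) and the RNA-seq change of Zfp106 (0.056) and Zfp91 (-0.0074).

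Of 592 values for named genes under alternatives, 38 reversed and 534 kept direction and side of the threshold on adjusted p. Another 10 came under it and 10 lost it. All 10 losses were Zfp444 in RNA-seq reads, without TMM or without an animal. The gains were Zfp422 in IP (4) and RNA-seq reads (2), Zfp444 in IP reads (3) and Zfp326 in RNA-seq reads (1). The others reversed were small log2 fold changes: without TMM in IP reads Zfp467 (0.052) and Zfp91 (0.085), and Zfp91 with filterByExpr (0.0062) or 1 peak per group (0.019). With an animal left out, IP changes ran from -0.39 to 0.50 for Zfp106, -0.30 to 0.054 for Zfp318, -0.17 to 0.43 for Zfp467, -0.80 to 0.60 for Zfp704 and -0.083 to 0.059 for Zfp91. RNA-seq changes ran from -0.37 to 0.45 for Zfp106, -0.079 to 0.45 for Zfp30, -0.068 to 0.25 for Zfp318, -0.0052 to 0.072 for Zfp598, -0.029 to 0.11 for Zfp638, -0.64 to 0.22 for Zfp704 and -0.045 to 0.10 for Zfp91. Db/m animal 2 turned Zfp106 and Zfp704. Without db/m animal 1, Zfp609 had no RNA-seq read left and gave no value. The cause of these changes was not tested. Depth limits the 34 peaks under 10 reads in IP or RNA-seq.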
